A study of Nannospalax ehrenbergi and Mus musculus with 14 samples.

Results

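miR-126 is a microRNA of vessel-lining (endothelial) cells, and its 2 arms were measured here in muscle and in the lesions that a carcinogen raised beside it. The names miR-126, miR-126a and miR-126b were searched for, without the arm suffix, in both deposited tables, and 3 of the 1326 names in each table matched: miR-126a-5p, miR-126a-3p and miR-126b-3p. The first 2 passed the filter on low values and were tested, and miR-126b-3p did not pass. The members were thus chosen by name.

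The 14 small RNA libraries came from *Spalax*, the blind mole rat (Nannospalax ehrenbergi), and from C57BL/6 mice, all of which had received 3-methylcholanthrene (3MCA), a chemical carcinogen, as a single injection of 1 mg in 500 µl for *Spalax* and 200 µg in 200 µl for mice. The injected side (IS) held the lesion and the uninjected side (UIS) the opposite muscle of the same treated animal, so no library here came from an untreated animal. The *Spalax* spalax_600 and spalax_976, both female, bore granulomas, which are benign, and were operated on after 14 and 16 months. The *Spalax* spalax_2240, a female, and spalax_2230, a male, bore fibrosarcomas, which are malignant, and were operated on after 18 and 30 months. The mice mouse_512, mouse_1023 and mouse_1019, all male, bore fibrosarcomas and were operated on after 11, 12 and 14 weeks. The series describes *Spalax* of about 2 years and of 10 years or older and mice of 3 to 4 months, without an age for each animal. Each *Spalax* group thus rests on 2 animals, whose ages were estimated.

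MicroRNAs are cut from a folded hairpin whose 2 strands give a 5p and a 3p arm, and an arm loaded into an Argonaute protein represses the messenger RNAs it pairs with. The hairpin of miR-126 lies inside Egfl7, a gene for a protein that endothelial cells secrete. The 3p arm is known for holding down Spred1 and Pik3r2, inhibitors of signalling from the receptor of vascular endothelial growth factor, and the 5p arm for holding down Dlk1 in dividing endothelial cells. In muscle, the capillaries between the fibers are the main site of such cells.

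The hairpins are printed because both arms, and the ratio between them, come from the same precursor, and because the miR-126b hairpin is read from the opposite strand of the same place. In the GENCODE M21 annotation of the mouse genome GRCm38, Mir126a (ENSMUSG00000065540) lies on the plus strand at chr2:26591357-26591429 and Mir126b (ENSMUSG00000105799) on the minus strand at chr2:26591363-26591420. Capitals mark the bases that the fold of lowest predicted energy pairs, and both are written as DNA from 5′ to 3′.
Mir126a: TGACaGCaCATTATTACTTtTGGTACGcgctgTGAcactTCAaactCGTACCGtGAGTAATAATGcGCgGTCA
Mir126b: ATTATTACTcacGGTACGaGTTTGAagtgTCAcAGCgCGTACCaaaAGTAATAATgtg
The first hairpin has 73 bases with 27 pairs and a fold energy of -31.2 kcal/mol, and the second has 58 bases with 21 pairs and -19.3 kcal/mol. Mir126b is the exact reverse complement of bases 7 to 64 of Mir126a, counted from the 5′ end. Both lie within Egfl7 (plus strand, chr2:26580014-26593120), of whose 19 annotated transcripts 9 span the place, 8 of them with an intron there, including 7 of 7 protein-coding ones, and 1 with an exon. These coordinates hold for the mouse, and *Spalax* sequence was not analysed here.

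The libraries held 11446933 to 13982842 microRNA reads at the UIS and 2034574 to 9574014 at the IS. The deposited value, called normalized read count below, is the reads divided by a size factor of the library. Both sides carry the label muscle tissue, and a list of 6 skeletal muscle markers (miR-499-5p, miR-208b-3p, miR-206-3p, miR-133a-3p, miR-133b-3p and miR-1a-3p) made up 27.6% to 37.3% of the reads at the UIS but 0.00953% to 3.92% at the IS, so that these markers were low or near 0 in the injected samples. The column of the third mouse UIS library carries an animal number that no label has, and that library is called unpaired and used as a mouse UIS replicate. The red cell list described below took 35.5% of the reads in the UIS library of mouse_512, compared with 14.3% in the unpaired library and 16.2% in that of mouse_1023. Nearly all of these were reads of miR-486, which muscle also expresses and whose names hold identical values. The same reads thus entered the list and the library total under each name, so these percentages count them repeatedly. Without miR-486 the list took 0.494%, 0.0539% and 0.149% in the same order.

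Both arms of miR-126a were abundant in every library and lower in normalized read count on the injected side, in benign and malignant lesions and in both species. At the UIS, the 5p arm ranked 19th to 26th and the 3p arm 29th to 44th among the names of a library, and at the IS the ranks were 21st to 55th and 39th to 97th. In bulk tissue, fewer endothelial cells and less miR-126 per cell cannot be told apart. When libraries were scaled to total reads, neither arm was called lower in any comparison, as given below.

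In *Spalax* with granuloma, the normalized read count of miR-126a-5p at the UIS was 105862 in spalax_600 and 94111 in spalax_976, and at the IS it was 20003 and 15051. The 3p arm had 32100 and 29459 at the UIS and 7680 and 6871 at the IS. Each IS library was below both UIS libraries for both arms. The difference in limma's fit, IS minus UIS on the log2(value + 1) scale, was -2.52 for the 5p arm (SE 0.36, adjusted p = 0.0017) and -2.08 for the 3p arm (SE 0.44, adjusted p = 0.00726). These are 5.75-fold and 4.23-fold lower levels, with 95% intervals of 3.19 to 10.4 and 2.09 to 8.56. In this comparison 22.8% of the 447 microRNAs tested passed an adjusted p of 0.05 in the lower direction. Of all 447, called or not, 73 had a more negative log2 change than the 5p arm.

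In *Spalax* with fibrosarcoma, miR-126a-5p had a normalized read count of 101898 in spalax_2240 and 85254 in spalax_2230 at the UIS, and 23435 and 12957 at the IS. The 3p arm had 37648 and 25819 at the UIS and 9375 and 4239 at the IS. The sides did not overlap for either arm, and spalax_2230, the later of the pair to be sampled, had the lower value of the pair on each side. The log2 change was -2.42 for the 5p arm (SE 0.36, adjusted p = 0.00255) and -2.31 for the 3p arm (SE 0.44, adjusted p = 0.00607), or 5.35-fold and 4.94-fold lower, with 95% intervals of 2.97 to 9.64 and 2.45 to 10.0. Here 22.1% of the microRNAs tested passed in the lower direction. The call of the 3p arm rested on the UIS library of spalax_2240, without which the change was -2.03 with an adjusted p of 0.0549.

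In mice with fibrosarcoma, the normalized read count of miR-126a-5p at the UIS was 62355 in mouse_512, 147295 in mouse_1023 and 103110 in the unpaired library, and at the IS it was 9787 in mouse_512, 20589 in mouse_1023 and 41132 in mouse_1019. The 3p arm had 24475, 55289 and 40157 at the UIS and 3370, 7793 and 15764 at the IS, in the same order. The sides again did not overlap, but libraries of one side differed more than in *Spalax*. The log2 change was -2.28 for the 5p arm (SE 0.58, adjusted p = 0.015) and -2.35 for the 3p arm (SE 0.60, adjusted p = 0.0157), with 25.6% of the 547 microRNAs tested passing in the lower direction. The folds were 4.85 (95% interval 1.89 to 12.5) and 5.08 (1.89 to 13.6). Without the UIS library of mouse_1023 neither arm passed, at -1.99 (adjusted p = 0.0534) and -2.07 (adjusted p = 0.0569).

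**Figure D1:**
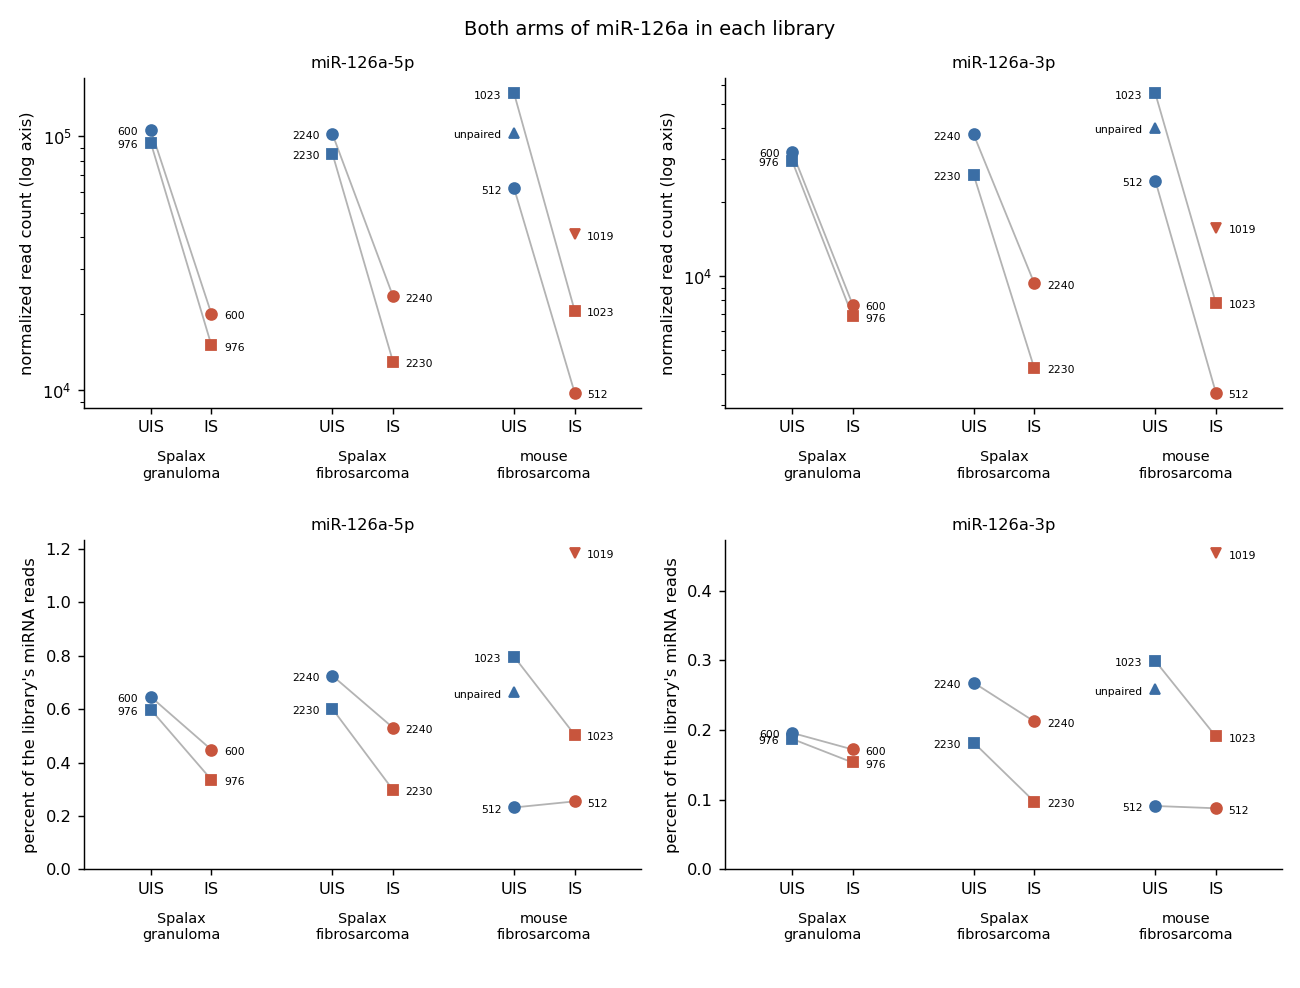
Normalized read count (top, log axis) and percent of the library's microRNA reads (bottom) of both arms of miR-126a in each of the 14 libraries, with blue points for the UIS, red points for the IS and a line joining the sides of 1 animal. All counts at the IS lie below those at the UIS of the same comparison, while the shares of reads lie closer together and the IS library of mouse_1019 has the highest share of both arms.

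Taken animal by animal, the normalized read count of the 5p arm was lower at the IS by 5.29-fold and 6.25-fold in the granuloma-bearing spalax_600 and spalax_976, by 4.35-fold and 6.58-fold in the fibrosarcoma-bearing spalax_2240 and spalax_2230, and by 6.37-fold and 7.15-fold in mouse_512 and mouse_1023. For the 3p arm the folds in the same order were 4.18, 4.29, 4.02, 6.09, 7.26 and 7.10. The folds thus ran from 4.35 to 7.15 for the 5p arm and from 4.02 to 7.26 for the 3p arm, with the higher end in mice.

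The size of the change depended on how libraries were scaled. Size factors by the median of ratios hold the middle microRNA of the libraries near no change, while a scaling to total reads also counts the muscle microRNAs that only the UIS held in quantity. Scaled to total reads, the 5p arm changed by 0.10 log2 units in mice (adjusted p = 0.897), by -0.73 in the fibrosarcomas of *Spalax* and by -0.68 in the granulomas (adjusted p = 0.127 for each). The 3p arm changed by 0.037 in mice (adjusted p = 0.963), by -0.62 in the fibrosarcomas of *Spalax* (adjusted p = 0.275) and by -0.24 in the granulomas (adjusted p = 0.642). No arm passed the test on that scale, and the sign was positive in mice. Scaled to the reads outside the muscle list, the 5p arm passed in granuloma (-1.33, adjusted p = 0.0164) and in *Spalax* fibrosarcoma (-1.37, adjusted p = 0.0192), and the 3p arm in *Spalax* fibrosarcoma (-1.26, adjusted p = 0.0494). The 3p arm in granuloma (-0.89) and both arms in mice (-0.35 for 5p, -0.42 for 3p) did not pass. Each of these changes lay nearer to that under total reads than to that under the deposited scaling. Leaving out the muscle list thus closed the smaller part of the gap.

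A scaling moves all microRNAs of a library alike, so the distance between an arm and the median of all microRNAs is nearly fixed by construction and is no sign of stability. It is given to read the changes against. The median log2 change of all microRNAs tested was 0.21 in mice, 0.13 in granuloma and -0.23 in *Spalax* fibrosarcoma under the deposited scaling, and 2.24, 1.71 and 1.14 under total reads. The 5p arm lay below that median by 2.49, 2.65 and 2.19 log2 units in the same order under the deposited scaling and by 2.14, 2.39 and 1.87 under total reads. For the 3p arm the distances were 2.56, 2.21 and 2.08 under the deposited scaling and 2.20, 1.95 and 1.76 under total reads.

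**Figure D2:**
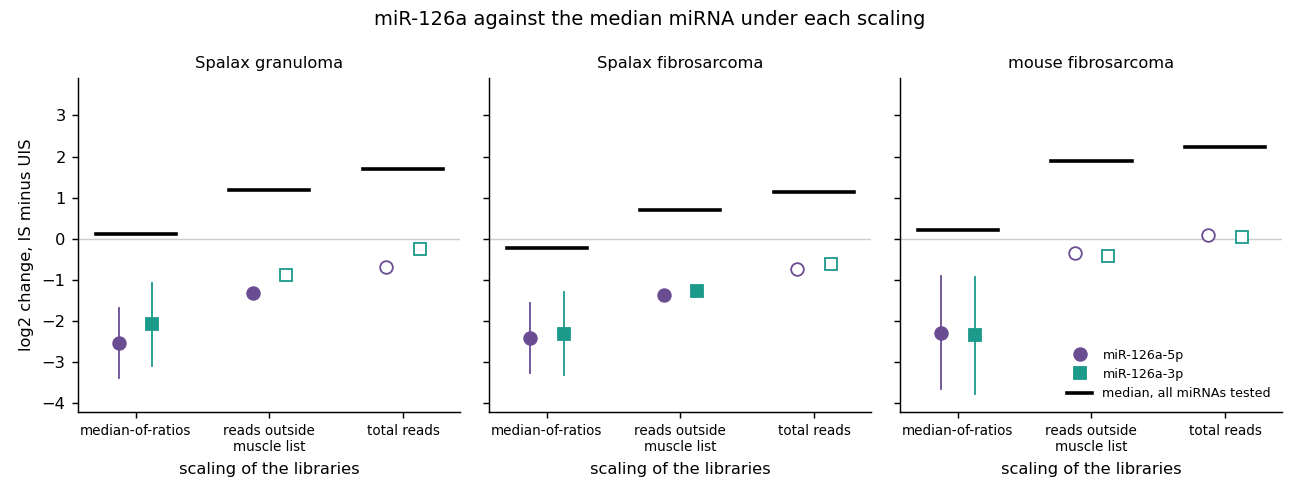
Log2 change (IS minus UIS) of miR-126a-5p (circles) and miR-126a-3p (squares) in the 3 comparisons under 3 scalings of the libraries, filled where limma's adjusted p was under 0.05, with 95% intervals for the deposited scaling and a black bar for the median of all microRNAs tested. From left to right the changes of both arms rise from between -2.52 and -2.08 to between -0.73 and 0.10, and the bar moves with them because each scaling acts on all microRNAs alike.

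As a share of all microRNA reads, which needs no size factor, the 5p arm took 0.646% and 0.599% at the UIS of spalax_600 and spalax_976 and 0.449% and 0.336% at the IS. In spalax_2240 and spalax_2230 it took 0.725% and 0.601% at the UIS and 0.531% and 0.298% at the IS. In mouse_512 and mouse_1023 it took 0.232% and 0.797% at the UIS and 0.255% and 0.504% at the IS. In 5 of 6 animals the IS had the lower share, mouse_512 being the exception. The mean log2 change of the share was -0.56 ± 0.40 (SD, n = 6 pairs, exact two-sided sign-flip permutation test, p = 0.0625, where 0.0312 is the smallest p that 6 pairs allow). That exception depended on the repeated counting of names with identical values. Once each set of such names entered the library total a single time, mouse_512 went down too, like the other animals. The mean was then -0.55 ± 0.32 (SD, n = 6 pairs, the same exact test, p = 0.0312), in a setting added after seeing the data. The share of the 3p arm lay between 0.0911% and 0.299% in the UIS libraries and between 0.0878% and 0.454% in the IS libraries. It was lower at the IS in 6 of 6 animals, with a mean log2 change of -0.40 ± 0.32 (SD, n = 6 pairs, the same exact test, p = 0.0312). In mouse_512 the 3p shares of the sides differed by less than counting error can show, at 0.0911% (Wilson 95% interval 0.0895% to 0.0927%) at the UIS and 0.0878% (0.0847% to 0.091%) at the IS, and the count of 6 of 6 rests on that pair too. Such intervals cover counting error only.

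Among the reads outside the muscle list, both arms had a lower share at the IS in 6 of 6 animals, by -1.13 ± 0.47 for the 5p arm and -0.97 ± 0.35 for the 3p arm on the log2 scale (SD, n = 6 pairs, exact sign-flip permutation test, p = 0.0312 for each). The IS library of mouse_1019 could not be paired. It had the highest share of both arms of any library, 1.18% for the 5p arm and 0.454% for the 3p arm, and the muscle list took 0.010% of its reads against 3.92% and 2.55% at the IS of mouse_512 and mouse_1023.

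The question whether a malignant lesion kept more or less miR-126a than a benign one was asked in *Spalax*, with 2 animals a group. The granuloma change less the fibrosarcoma change was -0.11 for the 5p arm (95% interval -1.31 to 1.10, adjusted p = 0.93) and 0.22 for the 3p arm (-1.21 to 1.66, adjusted p = 0.858), in a comparison where 3.8% of the microRNAs tested passed. At the IS alone, granuloma less fibrosarcoma was -0.01 for the 5p arm (-0.86 to 0.84, adjusted p = 1.0) and 0.20 for the 3p arm (-0.81 to 1.22, adjusted p = 0.777), while 18.8% of the microRNAs tested passed in either direction. Neither arm was therefore among the microRNAs called between the 2 kinds of lesion. The intervals at the IS allow a fibrosarcoma level of 0.557 to 1.81 times that in granuloma for the 5p arm and of 0.429 to 1.75 times for the 3p arm.

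At the UIS, granuloma-bearing less fibrosarcoma-bearing animals differed by 0.10 for the 5p arm (95% interval -0.75 to 0.95) and by -0.02 for the 3p arm (-1.04 to 1.00), with adjusted p-values of 1.0. This comparison called 0.0% of the microRNAs tested by limma, 5 of 447 at an unadjusted p under 0.05, and 0 by edgeR and by DESeq2 (7 and 10 at an unadjusted p under 0.05). The diagnosis goes with later sampling in these animals, so that it and the time after injection cannot be told apart. Sex differed in part too, since both granuloma animals were female and spalax_2230 was male.

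The 2 species were set side by side in a fit of all 14 libraries with the reads divided by size factors computed over all of them. At the UIS, *Spalax* less mouse was 0.35 for the 5p arm (95% interval -0.60 to 1.31, adjusted p = 0.554) and 0.09 for the 3p arm (-0.95 to 1.13, adjusted p = 0.904), where 47.0% of 591 microRNAs passed. In the fibrosarcomas the difference was 0.01 (-1.13 to 1.15, adjusted p = 0.989) and -0.01 (-1.25 to 1.22, adjusted p = 0.989), where 54.7% passed. The change in fibrosarcoma, *Spalax* less mouse, was -0.29 (-1.91 to 1.32, adjusted p = 0.789) for the 5p arm and -0.11 (-1.86 to 1.64, adjusted p = 0.924) for the 3p arm, where 26.6% passed. No species difference in miR-126a was thus detectable in level or in response, within the intervals given. Species goes with dose, time after injection and age in these animals, and in part with sex, so that their effects cannot be told apart. All mice were male, and of the *Spalax* only spalax_2230 was.

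The 5p arm outnumbered the 3p arm in 14 of 14 libraries, by 2.19-fold to 3.30-fold. Reads of 2 different sequences need not be recovered equally well, so the ratio is compared here between libraries and not taken as a ratio of molecules. In granuloma, the 3p arm made up 23.3% and 23.8% of the reads of both arms at the UIS of spalax_600 and spalax_976 and 27.7% and 31.3% at the IS. In *Spalax* fibrosarcoma it made up 27.0% and 23.2% at the UIS of spalax_2240 and spalax_2230 and 28.6% and 24.7% at the IS. In mice it made up 28.2%, 27.3% and 28.0% at the UIS (mouse_512, mouse_1023, unpaired) and 25.6%, 27.5% and 27.7% at the IS (mouse_512, mouse_1023, mouse_1019). Within animals the 3p share was higher at the IS in each *Spalax* and in mouse_1023, and lower in mouse_512.

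In limma's fit over the 113 hairpins with both arms tested in both tables, the log2 ratio of 3p to 5p changed by 0.44 in granuloma (SE 0.27, 95% interval -0.14 to 1.03, adjusted p = 0.284), where 7.96% of the hairpins passed. It changed by 0.11 in *Spalax* fibrosarcoma (SE 0.27, adjusted p = 0.801), where 16.8% passed, and by -0.07 in mice (SE 0.22, adjusted p = 0.875), where 23.0% passed. Within animals the ratio was higher at the IS in 5 of 6 pairs, by 0.16 ± 0.26 on the log2 scale (SD, n = 6 pairs, exact sign-flip permutation test, p = 0.219). IS minus UIS, the log2 ratio was 0.34 and 0.54 in the granuloma animals, 0.11 in each of the fibrosarcoma-bearing *Spalax*, 0.012 in mouse_1023 and -0.19 in mouse_512.

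At the UIS the log2 ratio was -1.64 ± 0.14 in *Spalax* (SD, n = 4) and -1.37 ± 0.03 in mice (SD, n = 3). The ranges, -1.72 to -1.44 and -1.41 to -1.35, did not overlap, and the 3p arm made up less of the total in *Spalax*. An exact two-sided permutation test gave p = 0.0571, where 0.0286 is the smallest that 4 against 3 libraries allow, and limma's fit gave a difference of -0.26 (SE 0.20, adjusted p = 0.366), where 32.7% of the hairpins passed. The difference thus passed neither test. limma's SE is moderated over all hairpins and is not the replicate error of miR-126a alone. The SD of miR-126a within groups was 0.13, against a median of 0.43 over all hairpins. The fit therefore cannot decide whether the difference exceeds the spread of miR-126a itself. The same moderation entered the SEs of the ratio changes between sides.

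**Figure D3:**
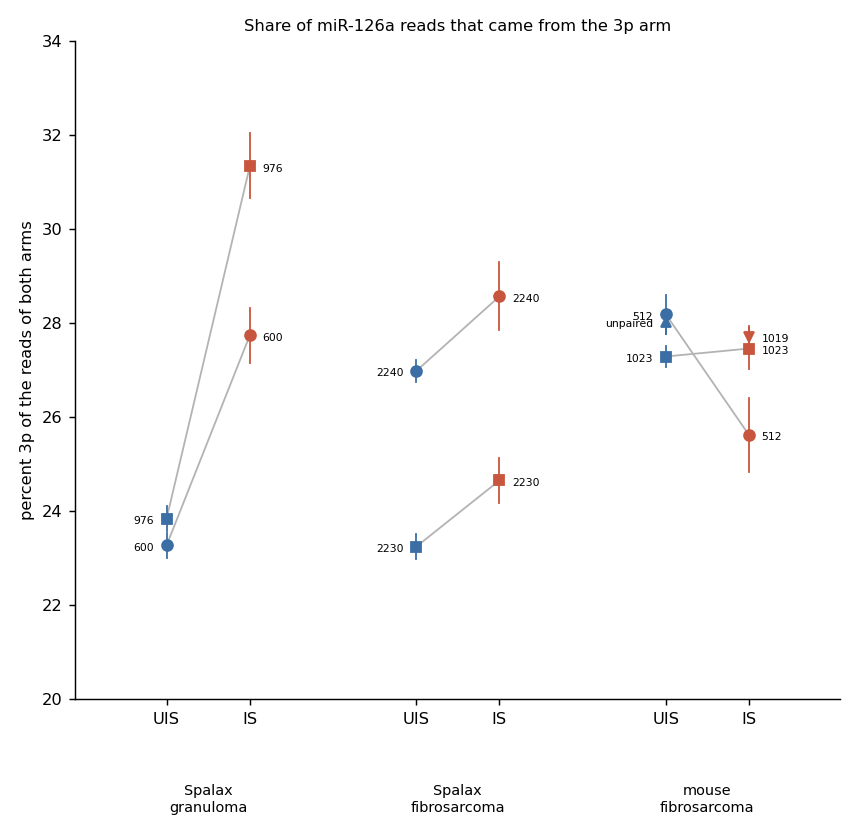
Percent of the reads of both miR-126a arms that came from the 3p arm in each library (the axis starts at 20%), with Wilson 95% intervals for counting error, blue for the UIS, red for the IS and a line joining the sides of 1 animal. The values run from 23.2% to 31.3%, and the line rises from the UIS to the IS in every pair but that of mouse_512.

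The arm ratio of miR-126a was the steadiest of the 113 hairpins. Its log2 ratio ranged over 0.59 units across the 14 libraries, against a median of 2.33 over all hairpins, and its SD within groups was 0.13 against a median of 0.43; 0 hairpins had a smaller range or a smaller SD. The next narrowest range was that of miR-423, at 0.81. In SD the gap was small, with miR-30a at 0.144 compared with 0.129 for miR-126a. Deeply counted hairpins vary less by counting alone, and miR-126a had the third highest mean count of the rarer arm. Among the 18 hairpins whose rarer arm had a mean normalized read count of at least 1000, the median range was 1.84 and the median SD 0.38, and 0 of the others had a smaller value of either. The 5p arm was the higher one in 61 of the 113 hairpins, and 27 hairpins had arms closer to even than those of miR-126a. This place in the order was seen after the values, and it is given as a description.

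**Figure D4:**
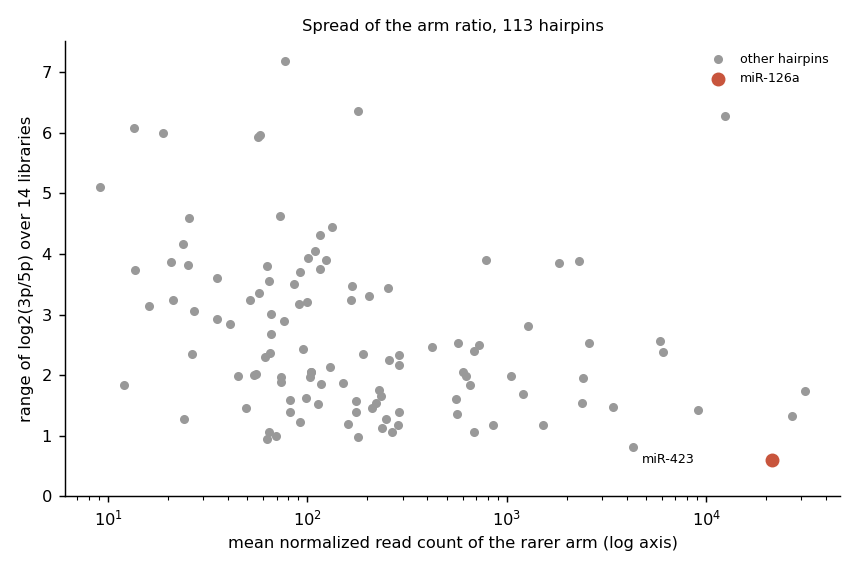
Range of the log2 ratio of 3p to 5p over the 14 libraries against the mean normalized read count of the rarer arm (log axis), 1 point for each of 113 hairpins. miR-126a, in red, has the smallest range, 0.59, and lies among the most deeply counted hairpins, several of which range over more than 1 unit.

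miR-126b-3p, from the antisense hairpin, was counted with 18 reads at the UIS and 9 at the IS of spalax_2230, with 4 at the IS of spalax_600 and with 3 or fewer in each of the other libraries. It had 0 reads in 6 libraries, among them all 3 mouse IS libraries, which allows a share of up to 2.15e-05% to 0.000147% depending on depth. In no library did it come near either arm of miR-126a, and it did not reach the normalized read count of 10 in enough libraries to be tested.

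Reads of miR-126a, both arms summed, were then set against reads of microRNAs that mark other cell types in the same library, a ratio that size factors cannot change. Against the smooth muscle and pericyte list (both arms of miR-143 and miR-145a), which marks the wall cells around vessels, the ratio ranged from 0.328 to 0.502 at the UIS of *Spalax* and from 0.174 to 0.633 at the IS, and in mice from 0.133 to 0.270 and from 0.0993 to 0.618. The log2 ratio was lower at the IS in 5 of 6 animals, by -0.38 ± 0.57 (SD, n = 6 pairs, exact sign-flip permutation test, p = 0.188, adjusted over 6 ratios 0.225). A change of the endothelial microRNA relative to those of the vessel wall was thus not shown.

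Against leukocyte markers (both arms of miR-223 and miR-142a, and miR-150-5p) the ratio fell in 6 of 6 animals, by -3.88 ± 1.00 on the log2 scale. At the UIS, miR-126a had 4.72 to 13.4 reads for each leukocyte read, and at the IS 0.311 to 1.05. Against fibroblast markers (miR-199a, miR-199b-5p and miR-214) it also fell in 6 of 6 animals, by -4.23 ± 1.21, from 0.907 to 1.99 reads for each fibroblast read at the UIS to between 0.0414 and 0.354 at the IS. Against the skeletal muscle list it rose in 6 of 6 animals, by 7.65 ± 3.97, with ratios of 0.0117 to 0.0383 at the UIS and 0.0874 to 163 at the IS. Each of these had p = 0.0312, the smallest that the exact sign-flip permutation test on 6 pairs allows, and 0.0469 adjusted over 6 ratios. Taken one by one under the deposited scaling, 4 of 5 leukocyte microRNAs were called higher and 1 lower in granuloma, 4 of 5 higher in *Spalax* fibrosarcoma and 2 of 5 higher in mice. The leukocyte microRNA called lower was miR-150-5p, at -2.05 in granuloma (limma, adjusted p = 0.0154). It was also negative, though not called, in *Spalax* fibrosarcoma (-1.49, adjusted p = 0.0579) and in mice (-2.17, adjusted p = 0.0905). Of the 5 fibroblast microRNAs, 5 were called higher in granuloma, 0 in *Spalax* fibrosarcoma and 4 in mice. Of all microRNAs tested, 25.5%, 15.2% and 32.2% were called higher in these comparisons, so the leukocyte count in mice lay near that share. Of the 4 vessel-wall microRNAs, 2 were called lower in granuloma, 2 in *Spalax* fibrosarcoma and 4 in mice, beside 22.8%, 22.1% and 25.6% of all microRNAs tested.

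Scaled to total reads, 4 of 5 leukocyte and 5 of 5 fibroblast microRNAs were called higher in each comparison, where 55.3% of all microRNAs were called higher in granuloma, 43.6% in *Spalax* fibrosarcoma and 68.7% in mice. In the lower direction that scaling called 0 of the 4 vessel-wall microRNAs and neither arm of miR-126a, and 10.7%, 8.95% and 5.67% of all microRNAs in the same order.

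The ratio to red cell markers depended on which markers were counted. With miR-451a, both arms of miR-144 and miR-486a-5p and miR-486b-5p, the log2 ratio was higher at the IS in 6 of 6 animals, by 1.65 ± 0.91 (SD, n = 6 pairs, exact sign-flip permutation test, p = 0.0312, adjusted 0.0469). Muscle also expresses miR-486, and its 2 names hold identical values. Without them the ratio was lower at the IS in 4 of 6 animals, by -0.75 ± 1.46 (SD, n = 6 pairs, the same exact test, p = 0.312). A direction against red cells is therefore not given.

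**Figure D5:**
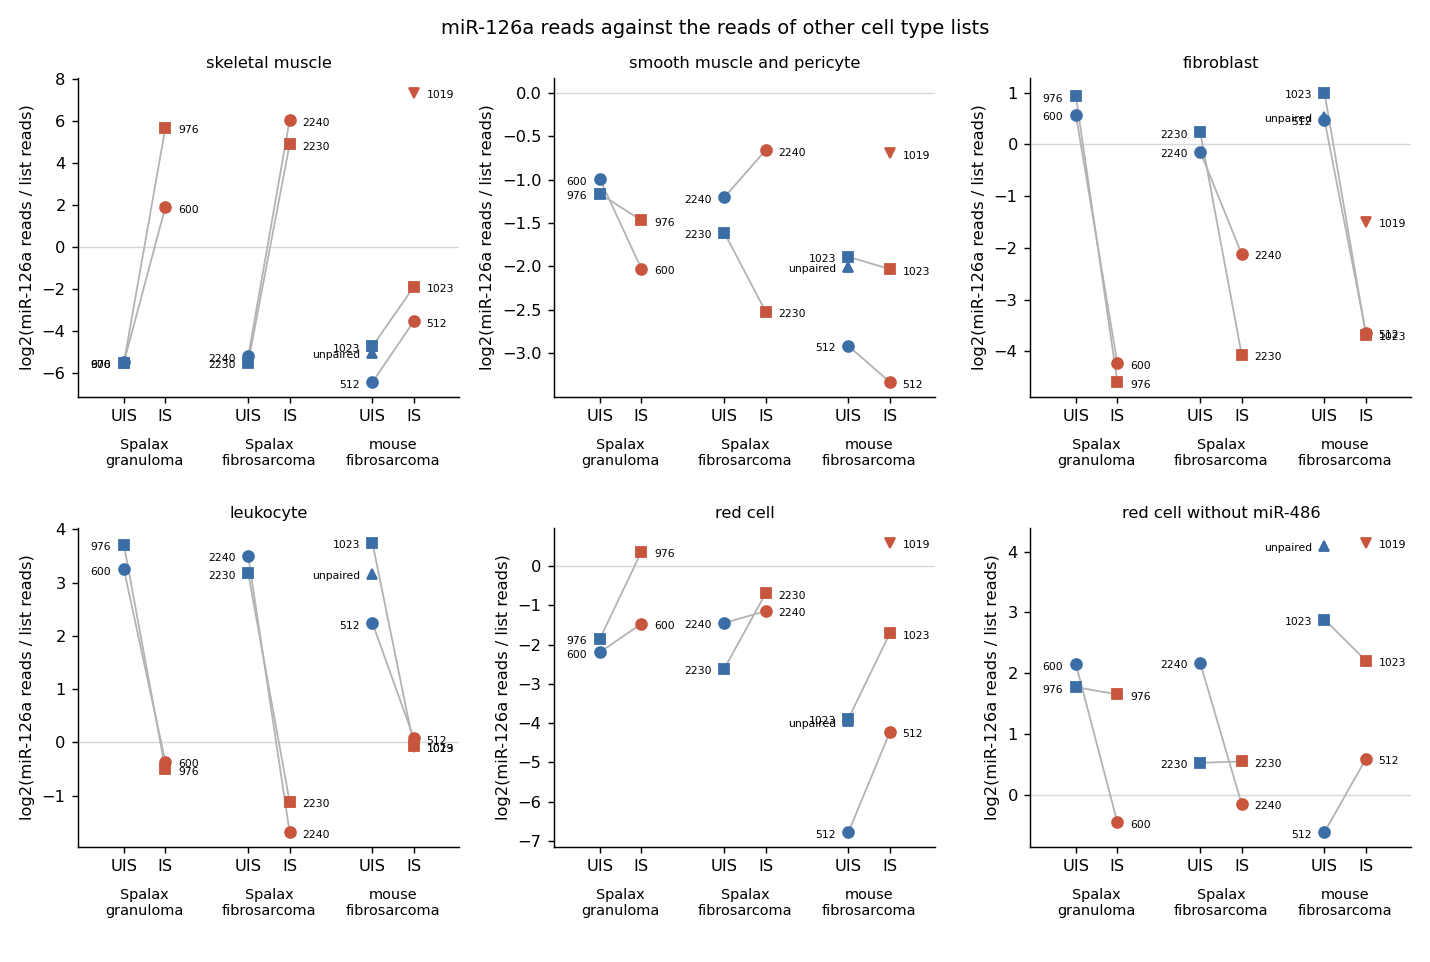
Log2 ratio of miR-126a reads (both arms) to the reads of 5 cell type lists, and of the red cell list without miR-486, in each library, with blue points for the UIS, red points for the IS and a line joining the sides of 1 animal. The ratio rises against skeletal muscle and falls against fibroblast and leukocyte markers in every pair, while pairs go both ways in the smooth muscle and pericyte panel and in the panel without miR-486.

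Other microRNAs linked to angiogenesis went in both directions. Of a list of 34 names, 33 were tested (miR-217-5p was not). In granuloma 10 were higher and 6 lower at the IS, near the shares of all microRNAs (25.5% higher and 22.8% lower), with a median log2 change of 0.29 against 0.13 for all microRNAs tested. In *Spalax* fibrosarcoma 12 were higher and 6 lower, beside 15.2% and 22.1% of all, with a median of 0.93 against -0.23. In mice 9 were higher and 8 lower, beside 32.2% and 25.6% of all, with a median of -0.028 against 0.21. Scaled to total reads, 25, 26 and 26 were higher and 1, 2 and 0 lower in the same order, on a scale that called 55.3%, 43.6% and 68.7% of all microRNAs higher. Several list members lie in shared clusters, so they are not independent of each other, and miR-214-3p is also on the fibroblast list.

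Among those called, miR-222-3p, which represses the receptor KIT, rose in all 3 comparisons, by 4.36 in granuloma, 4.81 in *Spalax* fibrosarcoma and 2.90 in mice on the log2 scale (limma, adjusted p = 0.00543, 0.0046 and 0.00414). It rose more under total reads, by 6.16, 6.47 and 5.25. Its clustered partner miR-221-3p also rose in all 3, by 1.72 in mice (adjusted p = 0.00588), by 4.43 in the fibrosarcomas of *Spalax* (adjusted p = 0.00909) and by 3.75 in the granulomas (adjusted p = 0.0135). miR-19a-3p, of the miR-17 to miR-92a cluster, rose by 2.77 in mice (adjusted p = 0.0158), by 4.28 in the fibrosarcomas of *Spalax* (adjusted p = 0.00456) and by 2.30 in the granulomas (adjusted p = 0.0381). In granuloma, miR-503-5p had 2 reads at the UIS of spalax_600 and 0 at that of spalax_976, and 47 and 42 at the IS.

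Of the members that were lower, miR-27b-3p, of the cluster with miR-23b and miR-24 that is active in endothelial sprouting, fell by 2.24 in granuloma (adjusted p = 0.000703) and by 2.53 in *Spalax* fibrosarcoma (adjusted p = 0.000719), and in mice its change was -0.94 (adjusted p = 0.095). Under total reads its changes in *Spalax* were -0.39 (adjusted p = 0.22) and -0.84 (adjusted p = 0.0308). In mice the sign turned on that scale and it was called higher, at 1.45 (limma, adjusted p = 0.028), as were 68.7% of all microRNAs tested. miR-101a-3p fell in all 3 comparisons, with log2 changes of -3.13 in granuloma (adjusted p = 0.000596), -1.93 in mice (adjusted p = 0.00269) and -1.57 in *Spalax* fibrosarcoma (adjusted p = 0.0107). Under total reads they were -1.28 (adjusted p = 0.0133), 0.45 (adjusted p = 0.283) and 0.12 (adjusted p = 0.807), so that the fall passed the test on that scale in granuloma and not in the fibrosarcomas of either species, where the sign turned. miR-296-5p, with at most 143 reads at the UIS, fell by 3.27 in *Spalax* fibrosarcoma (limma, adjusted p = 0.00339). Its changes in granuloma (0.88, adjusted p = 0.218) and in mice (1.65, adjusted p = 0.192) were positive and not called. Under total reads it was called lower in *Spalax* fibrosarcoma (-1.39, adjusted p = 0.0444) and higher in granuloma (2.57, adjusted p = 0.00285) and mice (3.48, adjusted p = 0.00959).

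The names whose levels followed miR-126a-3p most closely were ranked by the smaller of the Pearson correlations over the 8 *Spalax* and the 6 mouse libraries, on the log2 scale, over 402 names tested in both tables. The 5p arm came first, at 0.99 in *Spalax* and 1.00 in mice. It was followed by miR-30d-5p (0.93 and 0.93), let-7d-3p (0.94 and 0.93), miR-30b-5p (0.92 and 0.94) and miR-139-5p (0.95 and 0.92). Libraries come in pairs from 1 animal and fall into 2 sides, so much of each value reflects the common difference between sides. On the share of reads, which holds less of it, the arms correlated at 0.88 over the 8 *Spalax* libraries and 1.00 over the 6 mouse libraries.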

How the data were processed

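Small RNA of both sides of 4 *Spalax* and 3 mice was sequenced. Per the labels and methods, the authors trimmed adaptors and counted microRNAs with mirDeep, and the submitters' processing notes name TopHat 1.4.1, HTSeq and DESeq without roles. The build used for microRNAs is not given in the sources used here. The authors deposited a signal per name and library, which is reads divided by a size factor. The factors equal median-of-ratios factors over 6 mouse libraries in one table and over all 14 libraries in the other, and 100% of the values gave whole reads within 0.01. Counts recovered from both tables for the 5 shared mouse libraries differed by 0.

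Levels were tested with limma 3.58.1 (R 4.3.3) on log2(value + 1), since the files hold normalized values and not raw counts. Names entered if 2 or more *Spalax* libraries, or 3 or more mouse libraries, had a value of 10 or more, the species were fitted separately, and p-values were adjusted by Benjamini-Hochberg. Ratios were tested with limma over 113 hairpins and by exact sign flips, with 0.5 added to reads in list ratios. Hairpins were folded with RNAfold 2.7.2. Libraries were paired by the animal number in the labels, and deviations from group means correlated within pairs, across names, at 0.09 in granuloma, 0.0041 in *Spalax* fibrosarcoma, and 0.12 and -0.11 in mice. The fits were tested on simulated reads. Alternatives were edgeR 4.0.16 and DESeq2 1.42.0 on recovered reads, other scalings, pseudocounts and filters, the animal as a block, and leaving out each library. Counting identical names once, the ratios to cell type lists and the red cell list without miR-486 were added after seeing the data. Of the microRNA names with any reads, 266 repeat the values of an earlier name, not counting the first name of each set. Members and lists were chosen with earlier results of these data known. limma's p-values rest on a spread pooled over groups and moderated over all names or hairpins, with the sides of 1 animal taken as separate libraries. The exact tests rest on the values of these few animals. Named angiogenesis-linked microRNAs were taken from the 3 largest changes past the threshold in each direction and comparison.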

Additional observations from a re-analysis of the deposited data

How the results depend on the processing

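With edgeR, DESeq2, pseudocounts of 0.1 and 10, no filter, size factors computed without the muscle list and the animal as a replicate block, both arms stayed past the threshold in all 3 comparisons, as they did in both *Spalax* comparisons with only the compared libraries. With the replicate block the mouse changes were -2.76 for the 5p arm and -2.84 for the 3p arm, and it changed no call. It could not be run between diagnoses on 1 side, where each animal gives 1 library. Scaling ended calls. Scaled to total reads the 3p changes were 0.0371 in mice, -0.62 in *Spalax* fibrosarcoma and -0.24 in granuloma, and the 5p changes 0.10, -0.73 and -0.68. With identical names counted once they were -0.0411, -0.60 and -0.13 for the 3p arm and 0.0255, -0.71 and -0.57 for the 5p arm. Outside the muscle list the 3p arm lost the call in granuloma (-0.89), and in mice neither arm passed (-0.42 for 3p, -0.35 for 5p).

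For differences that were not called in any setting, the sign of the 5p arm turned. Granuloma change less fibrosarcoma change was 0.0523 with total reads, 0.043 outside the muscle list and 0.11 with edgeR and TMM factors. At the UIS, granuloma less fibrosarcoma was -0.0864, -0.0761 and -0.0348 in that order, and at the IS 0.0735 with TMM factors. *Spalax* less mouse in fibrosarcoma was -0.43, -0.46 and -0.55. The 5p share of reads within animals passed (p = 0.0312, exact sign-flip permutation test) at -1.13 outside the muscle list, -1.38 outside the muscle and red cell lists and -0.55 with identical names once. In each of these settings mouse_512 was no longer an exception.

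Leaving out 1 library at a time, the change ranged for the 3p arm from -2.89 to -1.77 in mice and from -2.88 to -1.73 in *Spalax* fibrosarcoma, and for the 5p arm from -2.79 to -1.75 in mice. The 3p arm ranged from -0.35 to 0.80 for granuloma change less fibrosarcoma change, from -0.29 to 0.25 at the UIS and from -0.37 to 0.78 at the IS, and the 5p arm from -0.53 to 0.32, from -0.0298 to 0.23 and from -0.43 to 0.42. The arm ratio in *Spalax* fibrosarcoma ranged from -0.0317 to 0.26. For *Spalax* less mouse, the 3p arm ranged from -0.19 to 0.35 at the UIS, from -0.59 to 0.56 in fibrosarcoma and from -0.69 to 0.46 for the change, and the 5p arm from -0.48 to 0.51 in fibrosarcoma and from -0.79 to 0.21 for the change. With 2 libraries a group in *Spalax*, a lone library is assumed to vary like the others. Depth limited only miR-126b-3p.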
